A study of Rattus with 6 samples.

Results

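The forkhead box O (FoxO) transcription factors and a set of genes linked to tissue atrophy were followed in rat bone marrow mesenchymal stem cells (BMSC), the stromal cells of marrow that can form bone, fat and cartilage. The set held 10 genes of the 30211 in the deposited count table, found by exact symbol: the factors Foxo1, Foxo3 and Foxo4, the insulin receptor substrates Irs1 and Irs2, the ubiquitin ligases Fbxo32 and Trim63, glutamine synthetase (Glul), and the growth restraints Ddit4 and Sesn1. RNA was sequenced from 3 control libraries and 3 libraries of cells kept for 4 days with 100 uM dexamethasone, a synthetic glucocorticoid. All 6 carry the genotype label WT, and no source used here gives the rat strain, the number of animals or any vehicle added to the controls. Groups were taken from the sample titles, because the treatment label reads DEX for all 6.

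FoxO factors are switched off by insulin and growth factor signalling: the kinases AKT and SGK phosphorylate them, 14-3-3 proteins bind them, and they leave the nucleus. When that signal is weak they enter the nucleus and raise genes for cell cycle arrest, stress defence, autophagy and protein breakdown. In skeletal muscle, glucocorticoids and FoxO factors together raise the ligases Fbxo32 (atrogin-1) and Trim63 (MuRF1), which mark muscle proteins for the proteasome, and Glul, Ddit4 and Sesn1 are also known to respond to one or both of these inputs. The counts describe RNA only and say nothing of FoxO phosphorylation or location.

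The libraries held 34835072 to 41676315 counts, and 14111 genes passed the filter on low counts and were tested, all 10 members among them. Fkbp5, a co-chaperone of the glucocorticoid receptor and one of its best-known targets, had 69.0 to 71.0 CPM (counts adjusted for library size, with TMM scaling) in the controls and 1290 to 1430 CPM with dexamethasone, and Tsc22d3, another such target, had 15.4 to 18.1 and 123 to 129 CPM, so both separated the groups as titled. Stromal markers were abundant in sum, with 5709 to 5760 CPM over 14 genes in the controls and 3953 to 3985 CPM with dexamethasone. Of these genes 4 rose and 8 fell. Itgb1 was the largest part, at a mean of 1299 and 973 CPM, while Lepr (0.262 and 0.913 CPM) and Ly6e (0.178 and 0.296 CPM) were low. Prrx1 fell from 727 to 75.6 CPM and Pdgfrb from 616 to 137 CPM, and Pdgfra rose from 598 to 965 CPM. Skeletal muscle markers were examined because the ligases are best known from muscle. Myog, Myf5 and Pax7 had no count. Of the 19 listed genes with a row, 8 could be tested, of which 3 fell and 0 rose. The falls were in Myod1 (mean 2.27 CPM in the controls and 0.715 CPM with dexamethasone), Tnnt3 (23.99 and 14.56 CPM) and Des. The sum over the listed muscle genes was 223 to 239 CPM in the controls and 190 to 196 CPM with dexamethasone. Most of it was Des, an intermediate filament gene also made outside muscle, at 201 and 172 CPM. Macrophage markers summed to 11.9 to 12.7 and 9.02 to 9.80 CPM with Adgre1, Cd163 and Tyrobp at 0. Most of that sum was Cd14, at a mean of 7.27 and 7.65 CPM, and of 6 tested 3 fell and 0 rose. Adipocyte markers summed to 4.43 to 5.12 and 9.14 to 12.2 CPM with Lep at 0. Most of the sum with dexamethasone was Cebpa. Adipoq, Fabp4, Plin1 and Cidec had 2, 8, 16 and 24 counts over all libraries and were not tested. Of 4 tested, Cebpa (1.73 to 7.75 CPM) and Retn (0.0336 to 1.19 CPM) rose, Lpl (1.62 to 0.268 CPM) fell and Pparg was not called. Endothelial markers summed to 1.45 to 2.15 and 1.53 to 2.02 CPM with Emcn and Cldn5 at 0. Of 2 tested, Tek rose and Vwf fell. Erythroid and lymphoid markers summed to at most 0.659 CPM in any library. The part of these cells in the changes below was not tested, and in bulk RNA fewer cells of a type cannot be told apart from less RNA per cell.

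Of the 10 genes, 8 rose with dexamethasone, 1 fell (Irs1) and 1 did not pass the test (Ddit4). Calls were made where edgeR's quasi-likelihood test gave an adjusted p below 0.05 (Benjamini-Hochberg over all tested genes). By that rule 64.0% of all tested genes were called, 32.3% as rises and 31.7% as falls, so most genes of any list would be called here. Called changes of at least 2-fold were found in 6 of the 10, against 15.6% of all tested genes, and 5 of these were rises, against 8.65%. With the coefficient of variation between replicates set to 0.2, 7 of the 10 were called (26.2% of all tested genes), and against a fold change of 1.5, 6 were (20.0%). The median log2 fold change of the 10 was 0.92, and that of all tested genes was -0.00. The libraries of the groups did not overlap for 9 of the 10, against 66.9% of all tested genes, and in 8 of them the dexamethasone libraries were the higher (33.8% of all tested genes).

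**Figure D1:**
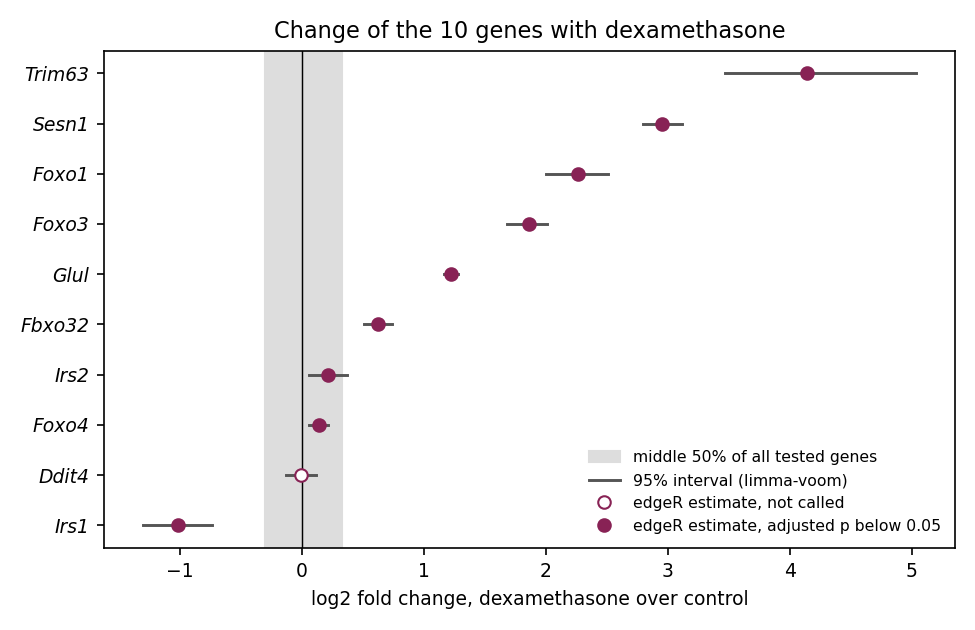
Log2 fold change (dexamethasone over control, x axis) of each of the 10 genes, with points for the edgeR estimate and bars for the 95% interval from limma-voom. Filled points were called and the open point, Ddit4, was not. The grey band spans the middle 50% of all tested genes, from -0.30 to 0.33, and Foxo4 (0.14), Irs2 (0.21) and Ddit4 (-0.01) lie inside it.

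Among the FoxO factors, Foxo1 and Foxo3 rose several-fold and Foxo4 barely moved. Foxo1, the factor best known from insulin control of liver glucose output (chromosome 2, 141451234 to 141527016, plus strand), stood at 3.22, 3.88 and 4.05 CPM without dexamethasone and at 16.2, 19.7 and 17.7 CPM with it. Every dexamethasone library stood far above every control. The rise was 4.79-fold, a log2 fold change of 2.26 ± 0.13 (SE, n = 3 per group), with an adjusted p of 7.9e-24 in edgeR's quasi-likelihood test.

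Foxo3, the factor most tied to muscle wasting and to quiescence of stem cells (chromosome 20, 46428124 to 46519144, plus strand), was at 41.1, 43.9 and 46.9 CPM in the control libraries, against 132, 172 and 175 CPM in the treated ones. The groups did not overlap, but dexamethasone replicate 1 lay well below the other two. The rise was 3.63-fold, a log2 fold change of 1.86 ± 0.14 (SE), with an adjusted p of 3.6e-04 in edgeR's test, a much weaker p than that of the smaller Glul rise described below. Without dexamethasone replicate 1 the log2 fold change was 1.99 and the adjusted p 1.3e-35. Across the other settings tried, replicates left out included, it stayed between 1.79 and 1.91 and was called in each. The adjusted p also varied with the fit when all libraries were kept. It was 3.0e-40 in DESeq2's Wald test, 9.7e-17 in limma-voom and 3.2e-29 in edgeR's test with replicate number as a block. In edgeR's test it was 3.7e-04 with DESeq2 size factors, 3.5e-04 with library size alone and 7.9e-04 without the filter.

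Foxo4, the X-linked member of the family (71155601 to 71162158 on chromosome X, plus strand), measured 77.5, 75.5 and 73.6 CPM in control replicates 1 to 3 and 79.9, 86.8 and 82.8 CPM in the dexamethasone replicates. The ranges did not overlap, though the lowest dexamethasone library was close to the highest control. The log2 fold change was 0.14 ± 0.040 (SE), a 1.10-fold rise, with an adjusted p of 0.0016 in edgeR's test. That call was lost with the coefficient of variation between replicates set to 0.2 (adjusted p = 0.763) and against a fold change of 1.5 (adjusted p = 1). The fourth family member, Foxo6, was near silent, with 2 counts in the 3 controls together and 5, 1 and 4 counts with dexamethasone, and was not tested.

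The makeup of the FoxO transcripts differed between the groups. Levels of different genes were compared per kilobase of exon as listed in the table (RPKM). In the controls Foxo4 was the most abundant factor in 3 of 3 libraries, with 57.8% ± 2.34 (SD, n = 3) of the summed FoxO level, followed by Foxo3 with 38.6% ± 1.98 and Foxo1 with 3.67% ± 0.385. With dexamethasone Foxo3 led in 3 of 3 libraries with 63.1% ± 2.86, Foxo4 held 28.9% ± 2.49 and Foxo1 held 7.99% ± 0.471. The ratio of Foxo3 to Foxo4 was 0.609 to 0.732 in the controls and 1.89 to 2.43 with dexamethasone. The summed level went from 39.5 ± 0.584 to 87.5 ± 9.85 RPKM. These shares rest on the exon lengths in the table, 2560 bases for Foxo1, 2880 for Foxo3 and 3310 for Foxo4, and would shift with other gene models.

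**Figure D2:**
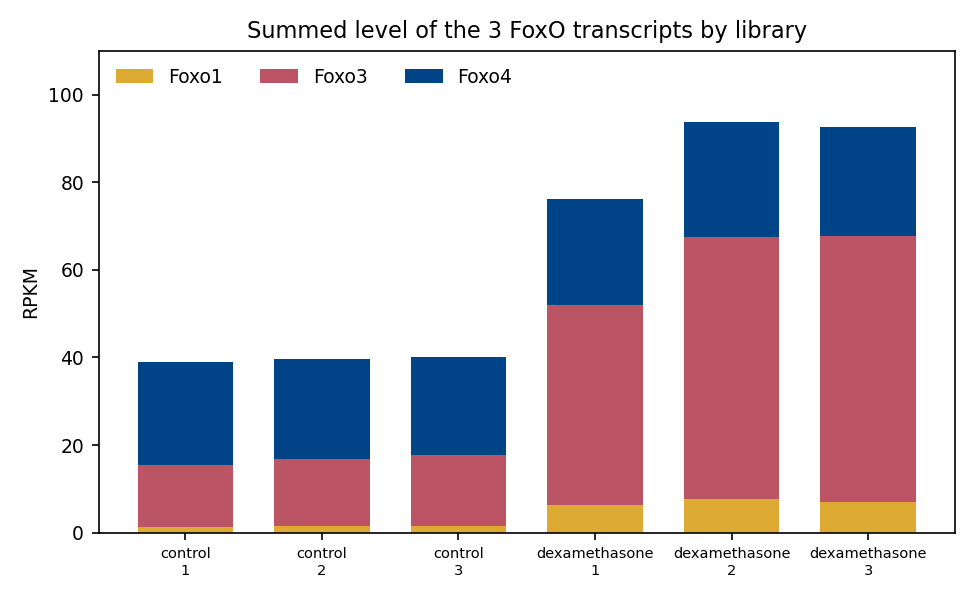
Stacked bars of the level of Foxo1, Foxo3 and Foxo4 transcripts (RPKM, y axis) in each of the 6 libraries (x axis). The whole bar lies between 38.9 and 40.1 RPKM in the controls and between 76.2 and 93.7 RPKM with dexamethasone, where the Foxo3 segment is the tallest.

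The insulin receptor substrates, the adaptors that carry the insulin and IGF signal from receptor to PI3-kinase and so stand upstream of FoxO, went different ways. Irs1 (chromosome 9, 88033668 to 88086488, minus strand) stood at 5.94, 5.93 and 6.80 CPM without dexamethasone and at 3.55, 2.81 and 2.81 CPM with it. All 3 dexamethasone libraries were below all 3 controls, on 99 to 272 counts per library. The log2 fold change was -1.02 ± 0.13 (SE), 2.03-fold lower, with an adjusted p of 6.0e-09 in edgeR's test.

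Irs2 (chromosome 16, 83824430 to 83848684, plus strand), which FoxO factors are known to raise in liver, was at 12.5, 12.5 and 13.9 CPM in the control libraries, against 15.3, 14.3 and 15.4 CPM in the treated ones. The ranges were adjacent without overlap. The log2 fold change was 0.21 ± 0.060 (SE), with an adjusted p of 0.015 in edgeR's test. The call was lost without control replicate 1 (adjusted p = 0.061), control replicate 2 (0.0629) or dexamethasone replicate 3 (0.0547), with the coefficient of variation set to 0.2 (0.620) and against a fold change of 1.5 (adjusted p = 1). Per kilobase, the ratio of Irs2 to Irs1 was 1.68 to 1.74 in the controls and 3.55 to 4.52 with dexamethasone, while the sum of both was 3.16 ± 0.214 and 2.88 ± 0.148 RPKM (SD, n = 3).

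The ubiquitin ligases both rose, from very different starting points. Trim63 (chromosome 5, 152533349 to 152547179, plus strand) was near the limit of detection in the controls, with 8, 4 and 15 counts, and had 167, 157 and 157 counts with dexamethasone. In CPM these were 0.207, 0.101 and 0.375 against 3.96, 4.45 and 3.87, so the dexamethasone libraries were alike and the controls scattered. The log2 fold change was 4.14 ± 0.43 (SE), with an adjusted p of 3.5e-18 in edgeR's test, and it ranked 96th from the top among the 14111 tested genes. Trim63 passed the filter on low counts only through its dexamethasone libraries. Its test and rank therefore rest on a gene admitted by the group where it was high. From the summed counts, 27 and 481, the ratio was 17.8, with an exact 95% binomial interval of 10.1 to 32.0 that covers counting error only. Leaving out control replicate 3 or 2 moved the log2 fold change to 4.70 or 3.79.

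Fbxo32 (chromosome 7, 98063735 to 98098268, minus strand) was expressed in both groups, with 22.1, 23.3 and 22.0 CPM in the controls against 34.4, 33.1 and 36.2 CPM after dexamethasone. The groups were well apart. The rise was 1.54-fold, a log2 fold change of 0.62 ± 0.045 (SE), with an adjusted p of 3.7e-13 in edgeR's test, and it was not called against a fold change of 1.5 (adjusted p = 0.381). Per kilobase, Fbxo32 stayed above Trim63 in every library, at 34.9 to 137 times its level in the controls and 4.43 to 5.58 times with dexamethasone.

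Glul, which makes glutamine from glutamate and ammonia and is a classic glucocorticoid-responsive gene of muscle (chromosome 13, 71331052 to 71340229, plus strand), was the most abundant of the 10. It measured 152, 154 and 152 CPM in control replicates 1 to 3 and 356, 355 and 357 CPM in the dexamethasone replicates. The libraries of each group were nearly equal. The rise was 2.33-fold, a log2 fold change of 1.22 ± 0.0075 (SE), with an adjusted p of 1.7e-34 in edgeR's test.

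Sesn1, a sestrin that restrains the growth kinase complex mTORC1 and is induced by p53 and FoxO (chromosome 20, 46667121 to 46758305, plus strand), stood at 6.61, 7.42 and 6.67 CPM without dexamethasone and at 54.2, 52.7 and 53.7 CPM with it. The groups were far apart and each was tight. The rise was 7.75-fold, a log2 fold change of 2.95 ± 0.055 (SE), with an adjusted p of 6.3e-36 in edgeR's test, and it ranked 192nd from the top among the tested genes.

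Ddit4 (REDD1), which also restrains mTORC1 and is a known glucocorticoid-induced gene in muscle (chromosome 20, 29509289 to 29511382, minus strand), was at 22.0, 24.1 and 24.3 CPM in the control libraries, against 24.2, 22.5 and 23.1 CPM in the treated ones. The groups overlapped. The log2 fold change was -0.01 ± 0.055 (SE), with a 95% interval of -0.13 to 0.12 from limma-voom and an adjusted p of 0.89 in edgeR's test. On the linear scale that interval runs from 0.912-fold to 1.08-fold.

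**Figure D3:**
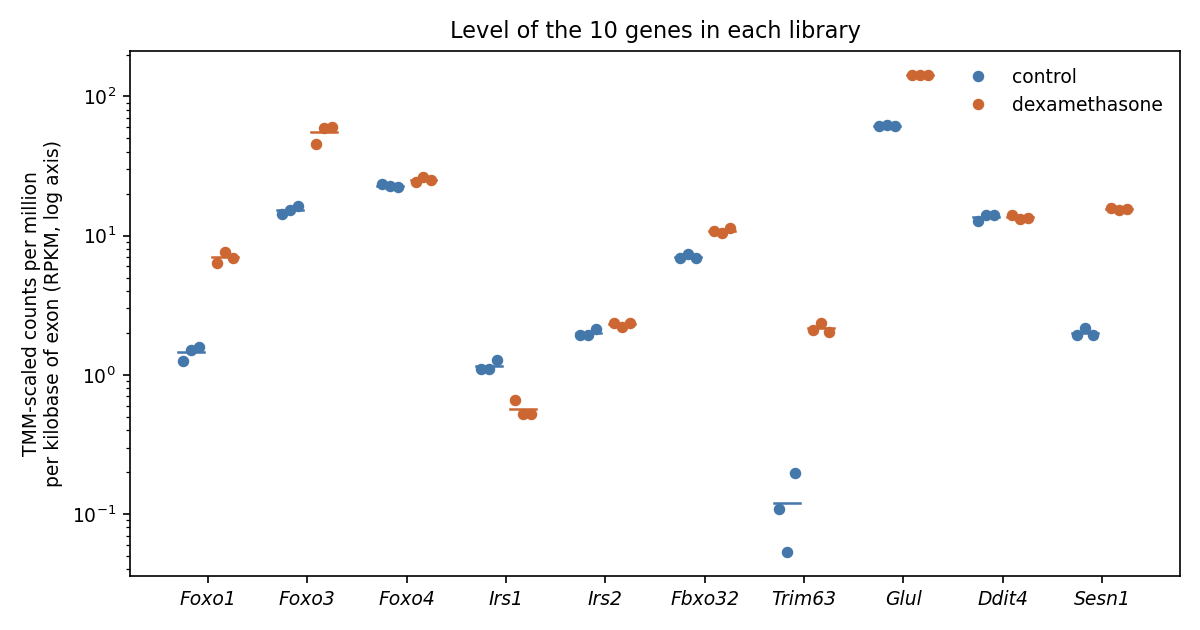
Level of each gene (RPKM, logarithmic y axis) in the 3 control and 3 dexamethasone libraries, with a point per library and a line at the group mean. Trim63 is lowest in the controls, at 0.0535 to 0.198 RPKM, Glul is highest in both groups, and the points of Ddit4 overlap.

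Ordered per kilobase, the controls ran from Glul (61.5 ± 0.543 RPKM) through Foxo4 (22.8), Foxo3 (15.3), Ddit4 (13.6), Fbxo32 (7.06), Sesn1 (2.0), Irs2 (1.99), Foxo1 (1.45) and Irs1 (1.16) to Trim63 (0.120 ± 0.0727). Neighbours in this order did not overlap, except Sesn1 with Irs2 and Foxo1 with Irs1. With dexamethasone the order was Glul (143 ± 0.258 RPKM), Foxo3 (55.4), Foxo4 (25.1), Sesn1 (15.5), Ddit4 (13.5), Fbxo32 (10.9), Foxo1 (6.98), Irs2 (2.31), Trim63 (2.16) and Irs1 (0.571 ± 0.0804). Here Irs2 and Trim63 overlapped and the other neighbours did not.

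The 10 genes also differed in how closely their replicates matched. Foxo3 had an SD of 15.2% of its mean across the dexamethasone libraries, where the median was 2.17% among 1157 tested genes within 1.5-fold of its level, and 1 of these had a larger value. In the controls its SD was 6.61% of the mean, and 9.22% of genes of like level exceeded that. Glul lay at the other end, with 0.180% of its mean across the dexamethasone libraries, and 98.9% of genes of like level varied more. Dexamethasone replicate 1 held the lowest value of that group for Foxo1, Foxo3 and Foxo4 and the highest for Irs1.

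**Figure D4:**
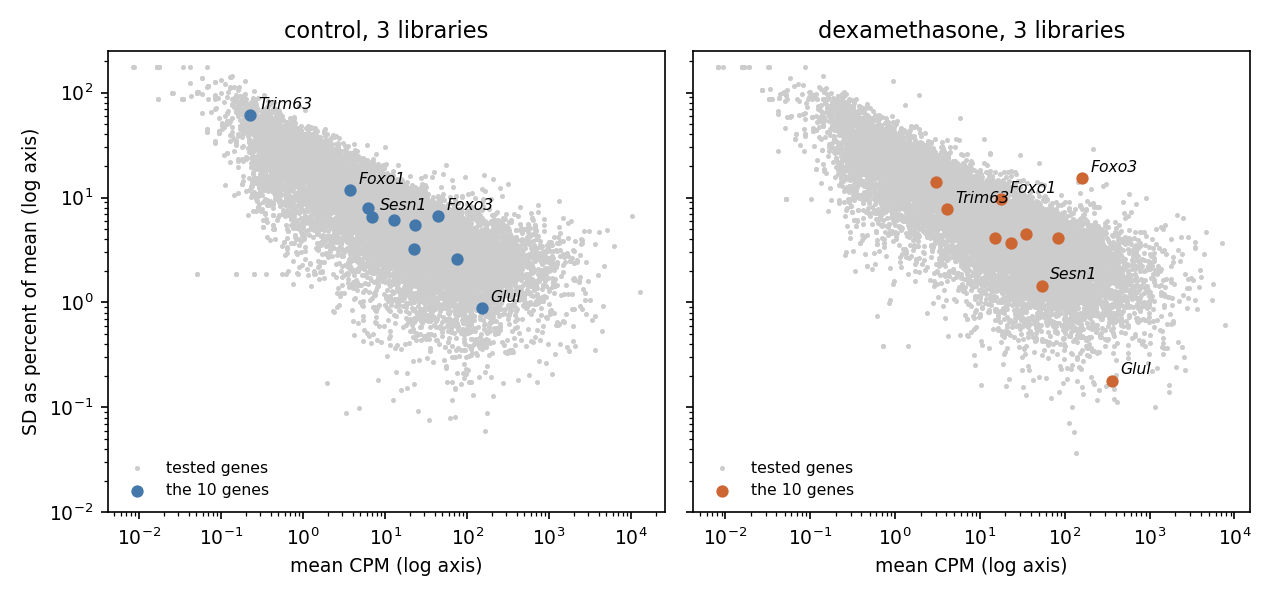
SD between the 3 libraries of a group as a percentage of their mean (logarithmic y axis) against mean CPM (logarithmic x axis) for all tested genes with an SD above 0 (grey) and the 10 genes (coloured), controls on the left and dexamethasone on the right. Foxo3 with dexamethasone (15.2%) lies above nearly all genes of like level, and Glul with dexamethasone (0.180%) near the lower edge.

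The rest of the pathway was read from 6 lists of genes, written from general knowledge but with earlier results of these data known. Their counts at an adjusted p below 0.05 are to be set beside 32.3% of rises and 31.7% of falls among all tested genes. The median log2 fold change of all tested genes was -0.00. Counts against a fold change of 1.5 are to be set beside 1549 rises and 1278 falls among all 14111 tested genes, 20.0% in all. Upstream of FoxO, 32 kinases, phosphatases and adaptors of insulin signalling were tested, with 13 rises, 11 falls and 8 genes not called (median log2 fold change 0.02). Sgk1, a FoxO kinase that glucocorticoids are known to induce, measured 79.1, 73.4 and 74.8 CPM in control replicates 1 to 3 and 308, 308 and 313 CPM in the dexamethasone replicates, a log2 fold change of 2.03 ± 0.033 (SE). The AKT-binding pseudokinase genes of the Tribbles family split, with Trib2 up from 4.06 ± 0.116 to 25.4 ± 1.21 CPM (SD, n = 3) and Trib3 and Trib1 down, from 49.3 ± 0.561 to 5.99 ± 0.325 CPM and from 8.26 ± 0.510 to 3.72 ± 0.224 CPM. Akt1 and Akt2, named after their values were seen, had log2 fold changes of -0.01 and -0.03 (adjusted p = 0.81 and 0.60, edgeR's test). Tested against a fold change of 1.5, the list gave 5 rises and 3 falls.

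Of 22 tested genes that handle or modify FoxO proteins (14-3-3 proteins, the exporter Xpo1, acetylases, kinases and ubiquitin enzymes), 9 were called higher, 7 lower and 6 in neither direction (median 0.06). Called changes of at least 2-fold numbered 1 of the 22, against 15.6% of all tested genes. Mapk8, which encodes the stress kinase JNK1, fell from 50.1 ± 1.49 to 28.6 ± 1.65 CPM (SD, n = 3), and Ywhag, a 14-3-3 protein, from 363 ± 4.16 to 262 ± 4.39 CPM. The other 14-3-3 genes, named after their values were seen, went both ways. Ywhae, the most abundant, rose from 1949 to 2382 CPM. Ywhah and Ywhaq also rose, Ywhaz fell, and Ywhab and Sfn were not called. Xpo1, the nuclear exporter, rose by 0.46 on the log2 scale, Skp2, an ubiquitin ligase subunit, by 0.68, and Prkaa2, a catalytic subunit of AMP-activated kinase, by 1.35 from 0.866 CPM. Those past a fold change of 1.5 numbered 1 in each direction.

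Genes known as FoxO targets in other tissues moved both ways. Rises numbered 14 and falls 11 among 30 tested, 5 were not called, and the median log2 fold change was 0.01. The largest rise was in Pdk4, which holds back glucose oxidation, with 1.22, 0.836 and 1.0 CPM in the controls against 18.6, 17.7 and 18.0 CPM after dexamethasone, a log2 fold change of 4.15 ± 0.15 (SE). Txnip, a thioredoxin inhibitor, rose by 3.53 from 2.52 CPM, and Bnip3, a mitophagy receptor, by 1.45 from 93.2 CPM. The death gene Pmaip1 (NOXA) fell from 775 ± 29.7 to 134 ± 3.99 CPM (SD, n = 3), and the stress gene Gadd45a from 272 ± 17.2 to 91.5 ± 9.70 CPM. The liver targets Pck1, G6pc and Igfbp1, named after their values were seen, had at most 2 counts in any library and were not tested. Rises numbered 7 and falls 4 against a fold change of 1.5.

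Other ligases and regulators named in muscle atrophy were also split, with 15 rises, 11 falls and 5 not passing among 31 tested, and a median of 0.11. The metallothioneins Mt2A and Mt1, small metal-binding proteins whose similar transcripts may share reads, rose by 3.31 and 3.32 on the log2 scale. Klf15, a glucocorticoid-induced factor that also stands in the list of FoxO targets, rose from 17.4 ± 0.485 to 52.8 ± 1.09 CPM (SD, n = 3). Fbxo30, another atrophy ligase, fell from 57.3 ± 0.682 to 29.3 ± 0.697 CPM, and Hdac4, a class IIa deacetylase, from 52.6 ± 1.14 to 27.5 ± 2.12 CPM. The muscle growth inhibitor gene Mstn, also named afterwards, had no count in any library. The list gave 4 rises and 2 falls against a fold change of 1.5.

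Around mTORC1, where Sesn1 and Ddit4 act, rises numbered 7 and falls 12 among 28 tested genes, 9 were not called, and the median was -0.06. Sesn2, the sestrin induced by the integrated stress response, went the opposite way to Sesn1, with 117, 115 and 113 CPM in the controls against 29.5, 31.6 and 32.6 CPM after dexamethasone, a log2 fold change of -1.88 ± 0.045 (SE). Sesn3, named after its values were seen, rose by 0.16. Deptor, an inhibitory partner of mTOR, rose from 3.71 ± 0.753 to 31.4 ± 0.384 CPM (SD, n = 3), Castor1, an arginine sensor, from 1.53 to 2.35 CPM, and Wdr59, a subunit of the nutrient-sensing GATOR2 complex, fell from 96.7 ± 4.07 to 50.9 ± 0.750 CPM. Rises numbered 3 without control replicate 1, 3 without dexamethasone replicate 3, 4 without control replicate 3 and 3 with DESeq2. With a fold change of 1.5 as the null, 1 rose and 2 fell.

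Most genes that make, use or carry glutamine and glutamate fell: 14 of 19 tested, with 2 rises and 3 not called, and the median log2 fold change, -0.47, was the lowest of the 6 lists. The rises were Glud1, glutamate dehydrogenase, from 241 ± 3.80 to 812 ± 3.44 CPM (SD, n = 3), and Oat, ornithine aminotransferase, by 0.08 on the log2 scale. With control replicate 2 or 3 left out, or dexamethasone replicate 1 or 3, there was 1 rise. Slc7a11, the cystine-glutamate exchanger, fell from 94.3 ± 4.90 to 5.99 ± 0.401 CPM, its partner chain Slc3a2 from 189 ± 2.04 to 68.9 ± 3.33 CPM, and Asns, which makes asparagine with glutamine as donor, from 65.8 ± 0.951 to 18.5 ± 0.599 CPM. Tested against a fold change of 1.5, 1 rose and 8 fell.

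**Figure D5:**
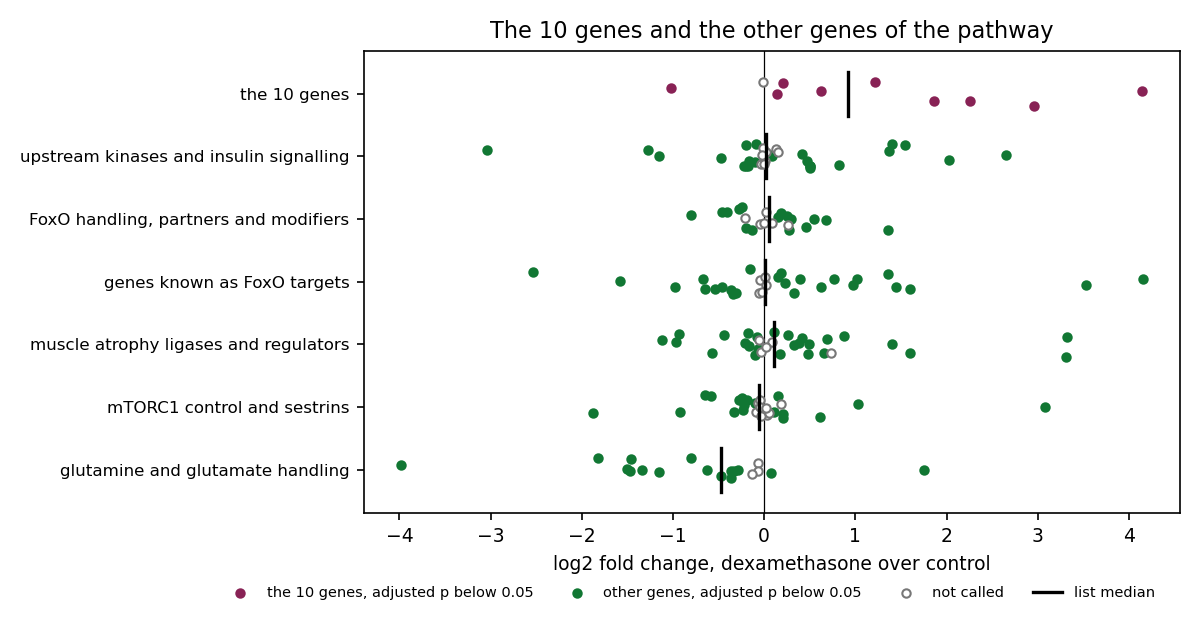
Log2 fold change (x axis) of each tested gene of the 10-gene set and of the 6 pathway lists (y axis), with filled points for adjusted p below 0.05, open points for genes not called and a bar at the list median. Each list holds rises and falls; the medians are 0.92 for the 10 genes and -0.47 for glutamine and glutamate handling, with the other 5 between -0.06 and 0.11.

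Genes with the pattern most like each FoxO factor were sought among 8995 tested genes of at least 5 CPM, by the root mean square difference of log2 CPM centred over the 6 libraries. Nearest to Foxo1 were Pbk, a mitotic kinase (difference 0.046, log2 fold change 2.22), and Agfg2 (0.095, 2.23). Nearest to Foxo3 were Cebpd, a transcription factor (0.090, 1.76), and Eya2, a transcriptional coactivator (0.11, 1.77). For Foxo4, Hnrnph2, an RNA-binding protein, was among the nearest (0.021, 0.16). The 6 libraries form 2 groups, so this likeness mostly reflects a similar difference between them.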

How the data were processed

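The authors deposited 1 table of raw read counts by gene for the 6 libraries, which also lists exon positions and length, per the file headers. No source used here names the aligner, the counting program or the strand setting. The build named in the submitters' processing notes was mm10, a mouse build, whereas the table held rat symbols: all 10 members were in RefSeq's rat gene table (GRCr8), 10 of them on the same chromosome. Coordinates are those of the table, in a rat build that no source used here names. No exon of a member overlapped another gene's.

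Genes passing filterByExpr entered a robust quasi-likelihood fit in edgeR 4.0.16 under R 4.3.3, with TMM scaling, dexamethasone against control, no covariate, Benjamini-Hochberg over 14111 genes. SEs come from log2 CPM (prior count 2) between replicates, 95% intervals from limma-voom (limma 3.58.1). RPKM is TMM-scaled CPM per kilobase of listed exon. Alternatives, among them DESeq2 1.42.0, fixed dispersion and replicates left out, are described at the end. Of counts from 1 to 20, 70.3% were even, so the counting interval of Trim63 was computed on counts divided by 2. On simulated data for this comparison (14111 genes, 200 of them changed), 26 of 50 changes of 1.2-fold, 42 of 50 of 1.5-fold, 45 of 50 of 2-fold and 48 of 50 of 4-fold were recovered. In the data themselves 64.0% of tested genes were called, so recovery there may differ.

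The members, lists and tests were chosen with earlier results of these data known. Named from each list were the 3 smallest p and the 2 largest called rises and falls of at least 1 CPM; some genes are not reported here. Whether replicates came from separate cultures is not in the labels; p-values then reflect just the scatter of these libraries, possibly technical. Library depths of 34835072 to 41676315 counts limit precision for Trim63 and Irs1.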

Additional observations from a re-analysis of the deposited data

How the results depend on the processing

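Of the 10 genes, Foxo1, Foxo3, Irs1, Trim63, Glul and Sesn1 kept their direction and their call under every alternative run: other size factors, library size alone, no filter, DESeq2, limma-voom, the replicate block, a set coefficient of variation, a fold threshold and each library left out. With the coefficient of variation set to 0.2, Foxo4 (log2 0.14, adjusted p = 0.763) and Irs2 (0.21, adjusted p = 0.620) were not called, and 3693 genes in all were, 1993 up and 1700 down (26.2%). Rises and falls in the lists were then 6 and 3 for upstream kinases, 2 and 1 for FoxO handling, 9 and 5 for FoxO targets, 7 and 3 for atrophy regulators, 2 and 3 for mTORC1 control and 1 and 9 for glutamine handling. Against a fold change of 1.5, 2827 genes were called, 1549 up and 1278 down (20.0%), and 5 members rose: Foxo4 (0.14), Irs2 (0.21) and Fbxo32 (0.62) were not called. The lists then gave 5 and 3, 1 and 1, 7 and 4, 4 and 2, 1 and 2, and 1 and 8, in the same order. With DESeq2, 3 genes rose in the mTORC1 list and 1 in the glutamine list. The log2 fold change of Ddit4, near 0 throughout, was 0.027 with library size alone and -0.056 to 0.016 with a library left out. With a library left out Irs2 ranged from 0.19 to 0.26, and the rises from 3 to 8 in the mTORC1 list and from 1 to 2 in the glutamine list. Library size alone moved the median of all genes to 0.04 and the Glul level to 60.7 and 145 RPKM; the order of the 10 levels was the same. Deviations from the group means, taken over all tested genes, correlated at -0.008 to 0.020 between replicates with the same number. Replicates with different numbers gave -0.033 to 0.031. These values do not settle whether replicates were paired. The fit with the replicate block called 8991 genes against 9027, with 8 members up and 1 down as before. The causes of these differences were not tested.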

Other observations

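Foxo3 and Sesn1 lie close together on chromosome 20, and the genes between them were looked at after these positions were seen. In the table's coordinates 148 kb separate the end of Foxo3 from the start of Sesn1, both on the plus strand. Cep57l1, a centrosomal protein gene on the minus strand whose highest coordinate lies 291 bases before the start of Sesn1, stood at 42.9, 40.9 and 39.7 CPM in control libraries against 67.0, 64.5 and 67.0 CPM in treated ones, a log2 fold change of 0.68 ± 0.037 (SE) with an adjusted p of 3.0e-18 (edgeR's quasi-likelihood test, Benjamini-Hochberg). It was higher in 3 of 3 dexamethasone libraries without overlap, as were 33.8% of all tested genes.

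The remaining entry of the stretch with counts is AABR07045405.1, a gene model named after a contig, with 216 bases of exon on the same strand as Foxo3, starting 287 bases beyond its last listed exon (46519431 to 46519664). It stood at 4.38, 4.26 and 3.90 CPM without dexamethasone and 7.79, 7.49 and 7.98 CPM with it. Its rise was 1.86-fold (adjusted p = 3.8e-09, edgeR's test), against 3.63-fold for Foxo3. Its dexamethasone mean was 7.75 ± 0.249 CPM (SD, n = 3), and replicate 1, the low library for Foxo3, was not the lowest of them. Whether these reads belong to the Foxo3 transcript was not tested.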
